A study of Mus musculus with 8 samples.

Results

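The 48 skeletal muscle genes described here encode proteins that build the contractile apparatus of striated muscle, release calcium onto it or supply it with energy. The list is one of gene symbols, chosen with earlier results of these data known, and no value threshold decides membership. A gene was measured where the annotation of the array table gave a row to that gene alone, and 34 of the 48 genes had such a row, out of 14860 genes named in the whole table. Of the other 14 genes, the myosin heavy chain genes Myh1, Myh2, Myh4, Myh7 and Myh8 were found only on rows shared with further genes. Mylk2, Tnnt1, Myl3, Ttn, Neb, Xirp2, Ampd1, Klhl41 and Trim63 matched no row with a single gene. These 14 genes are given no value, so the myosin motors themselves were not analysed here.

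Expression was measured in mammary tumors of nulliparous female mice on the FVB background, 4 from MMTV-Wnt/ILK mice and 4 from MMTV-Wnt1 mice, and each tumor was hybridized to its own Affymetrix Mouse Exon 1.0 ST array. Both groups carry a Wnt1 transgene driven in the mammary epithelium by the long terminal repeat of mouse mammary tumor virus (MMTV), and MMTV-Wnt/ILK mice, bred from MMTV-Wnt1 males and MMTV-ILK females, carry in addition a human ILK transgene under the same promoter. ILK (integrin-linked kinase) relays signals from integrins, the receptors of the cell for extracellular matrix. The ages of the arrayed tumors are not given in the sources used here. The study describes the tumors as independent, and p-values therefore set the group difference against the spread between tumors. That spread includes the error of the arrays, since each tumor has 1 array. Values are log2 expression values made by the authors with the RMA algorithm, so a difference of 1 is a 2-fold change on the scale of the array. The 8 arrays had medians between 6.89 and 7.23, and correlations between arrays were 0.920 to 0.974. Epcam, which marks epithelial cells, was at 12.39 to 12.82 in MMTV-Wnt/ILK tumors and at 12.33 to 12.89 in MMTV-Wnt1 tumors, so a defining marker of mammary epithelium was present in each tumor.

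A muscle fiber contracts when calcium, released from the sarcoplasmic reticulum through the ryanodine receptor, binds troponin C and lets myosin pull on actin. Fast and slow fibers make their own versions of the troponins, myosin light chains and calcium pumps, and fast fibers rely more on phosphocreatine and glycolysis. In the mouse a thin sheet of skeletal muscle lies beneath the skin next to the mammary fat pads, whereas mammary epithelium itself contains contractile myoepithelial cells that use the smooth muscle forms of these proteins.

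Promoters of 4 members are shown because the results turn on these genes: Acta1, Atp2a1 and Ckm were among the members that varied most between tumors, and Tnni1 was the member whose groups did not overlap. Each runs 5′ to 3′ from 250 bases before to 50 bases after the transcription start in RefSeq, build GRCm38.p6. They lie at chr8:123894726-123895025 on the minus strand (Acta1), chr7:126463024-126463323 on the minus strand (Atp2a1), chr7:19410844-19411143 on the plus strand (Ckm) and chr1:135799171-135799470 on the plus strand (Tnni1, the first of 2 starts in the table). Capitals mark matches to the E-box CANNTG, and in Acta1 also the letters TATAAA and the CArG box, the motif of serum response factor.
Acta1: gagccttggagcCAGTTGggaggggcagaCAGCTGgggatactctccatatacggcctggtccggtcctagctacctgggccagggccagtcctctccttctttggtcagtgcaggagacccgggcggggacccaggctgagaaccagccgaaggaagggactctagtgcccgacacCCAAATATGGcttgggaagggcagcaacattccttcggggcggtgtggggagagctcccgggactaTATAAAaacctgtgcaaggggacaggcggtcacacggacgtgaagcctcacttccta
Atp2a1: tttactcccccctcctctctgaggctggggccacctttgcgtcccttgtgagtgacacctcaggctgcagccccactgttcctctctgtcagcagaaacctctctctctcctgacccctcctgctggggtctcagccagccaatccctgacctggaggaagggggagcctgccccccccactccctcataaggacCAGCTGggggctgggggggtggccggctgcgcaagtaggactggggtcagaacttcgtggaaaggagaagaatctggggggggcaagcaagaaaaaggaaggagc
Ckm: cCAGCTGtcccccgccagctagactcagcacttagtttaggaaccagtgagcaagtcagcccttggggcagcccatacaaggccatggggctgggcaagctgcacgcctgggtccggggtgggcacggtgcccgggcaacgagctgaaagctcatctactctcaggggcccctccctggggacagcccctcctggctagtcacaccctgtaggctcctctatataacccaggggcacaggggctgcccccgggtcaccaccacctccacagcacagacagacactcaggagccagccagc
Tnni1: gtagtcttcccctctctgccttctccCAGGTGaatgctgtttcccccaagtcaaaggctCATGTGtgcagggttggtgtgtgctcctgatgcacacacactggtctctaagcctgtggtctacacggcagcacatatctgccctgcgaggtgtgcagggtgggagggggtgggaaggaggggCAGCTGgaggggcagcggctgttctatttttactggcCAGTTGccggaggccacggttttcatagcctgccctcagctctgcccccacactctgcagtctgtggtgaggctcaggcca
Acta1 held 2 E-boxes, at -238 to -233 and at -221 to -216, and its CArG box at -73 to -64, counted from the start. Atp2a1 held 1 E-box, at -55 to -50, and Ckm held 1, at -249 to -244, whereas Tnni1 held 4. Of the 34 measured members, 24 had a promoter in the RefSeq table. The E-box CANNTG was found on either strand in 20 of these 24, or 83.3%, against 72.1% of all 27025 promoters of this length. Its form CAGCTG, which is also counted in CANNTG and is bound by myogenic factors such as MyoD, was found in 15 of 24, or 62.5%, against 16.1% of all promoters. The MEF2 box was found in Pgam2 and Pvalb (3.26% of all promoters), the CArG box in Acta1 and Ldb3 (1.57%), and TATAAA in Myl1 and Acta1 (14.2%). A match describes the letters in this window and is not a measured binding site.

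Transcripts of skeletal muscle were high in 1 tumor of each group. MMTV-Wnt/ILK tumor 3 and MMTV-Wnt1 tumor 1 were the 2 highest of the 8 tumors in 29 of 34 members, a pattern found in 2.92% of the 23332 rows of the table. The highest tumor was MMTV-Wnt/ILK tumor 3 in 27 members (7.65% of all rows), and MMTV-Wnt1 tumor 1 in 4 members (14.2% of all rows), namely Tnni1, Ldb3, Sln and Mb. In 21 of 34 members MMTV-Wnt/ILK tumor 3 lay more than 1 log2 unit above each of the other 3 MMTV-Wnt/ILK tumors (0.746% of all rows). MMTV-Wnt1 tumor 1 did so against the other 3 MMTV-Wnt1 tumors in 13 members (0.724% of all rows). These tumors, called the high pair here, were singled out from the values of the members, and the counts are a description with no test. The RNA came from whole tumor tissue, in which fewer cells of a type and less RNA per cell cannot be told apart. The 5 members without the pattern were Tnni1, Tnnc1, Myl2, Ldb3 and Car3.

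**Figure D1:**
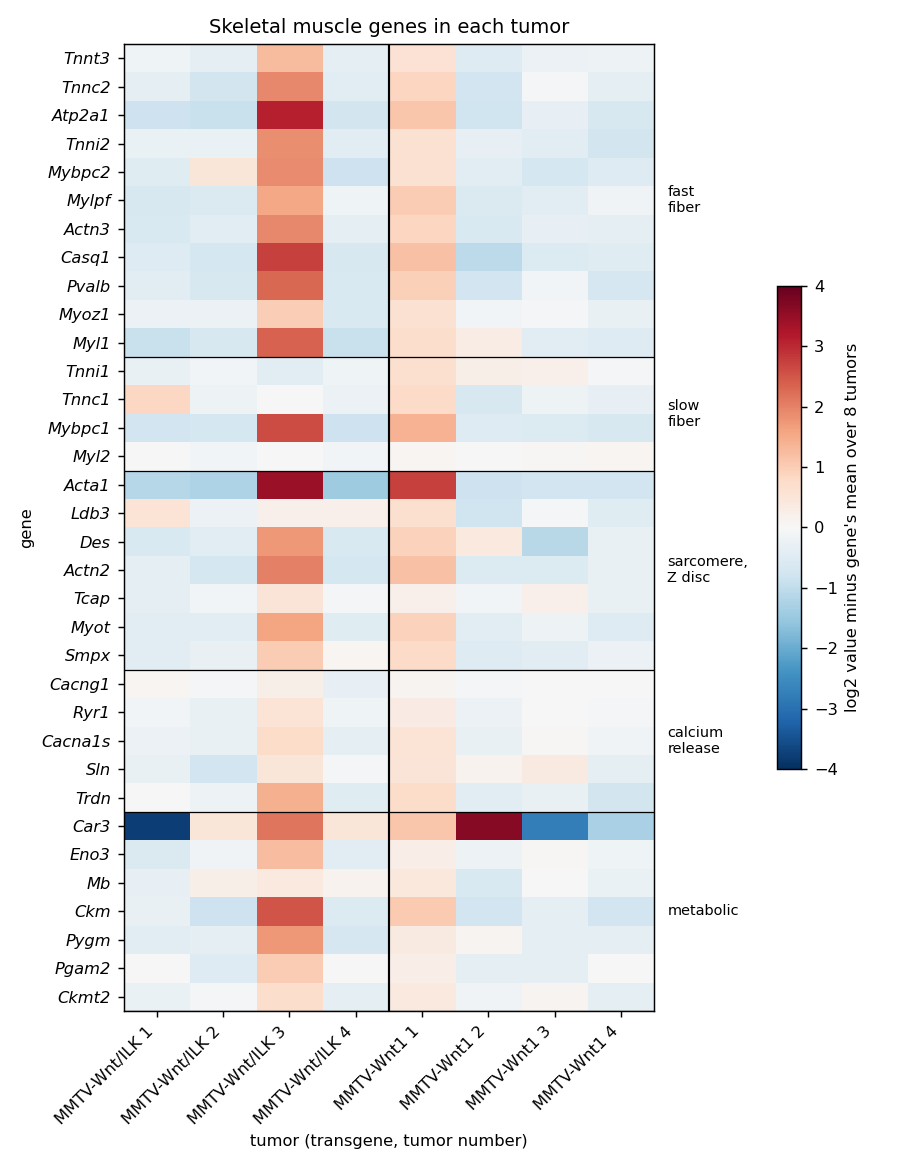
Each row is 1 of the 34 measured members, ordered by role, and each column is 1 tumor. Color gives the log2 value minus the mean of that gene over the 8 tumors. MMTV-Wnt/ILK tumor 3 and MMTV-Wnt1 tumor 1 are the 2 highest tumors in 29 of 34 rows. Car3 is highest in MMTV-Wnt1 tumor 2, followed by these 2 tumors.

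The fast fiber members were high together. All 11 measured members of this role had MMTV-Wnt/ILK tumor 3 as the highest tumor and MMTV-Wnt1 tumor 1 as the next. Atp2a1 encodes SERCA1, the calcium pump of fast fibers. Its log2 values were 5.57, 5.50, 9.51 and 5.67 in MMTV-Wnt/ILK tumors 1 to 4, against 7.52, 5.61, 6.08 and 5.77 in MMTV-Wnt1 tumors 1 to 4. Tumor 3 thus stood 15.2-fold above the mean of the other MMTV-Wnt/ILK tumors and tumor 1 stood 3.26-fold above the mean of the other MMTV-Wnt1 tumors, while the remaining tumors of both groups overlapped. Tnnc2, the calcium-binding troponin C of fast fibers, had 6.05, 5.70, 8.37 and 6.005 in MMTV-Wnt/ILK tumors and 7.29, 5.66, 6.38 and 6.05 in MMTV-Wnt1 tumors. Tnni2, the inhibitory troponin I of fast fibers, had 6.12, 6.10, 8.22 and 5.91 in MMTV-Wnt/ILK tumors and 6.98, 6.04, 5.96 and 5.65 in MMTV-Wnt1 tumors. In both genes 1 tumor of each group was high and the other 6 tumors overlapped. Tnnt3, which ties the fast troponin complex to tropomyosin, had 6.33, 6.16, 7.77 and 6.17 in MMTV-Wnt/ILK tumors and 7.11, 6.005, 6.28 and 6.30 in MMTV-Wnt1 tumors, the same order of tumors with a smaller step.

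The other 7 fast fiber members followed. In MMTV-Wnt/ILK tumor 3 the fold over the mean of the other MMTV-Wnt/ILK tumors ran from 2.56 for Myoz1, a Z disc protein that binds calcineurin, to 15.2 for Atp2a1, with a median of 5.28. In MMTV-Wnt1 tumor 1 the fold over the mean of the other MMTV-Wnt1 tumors ran from 1.69 for Myoz1 to 3.63 for Casq1, the calcium store protein calsequestrin, with a median of 2.40. Casq1, Pvalb and Myl1 here, and Des and Ckm further on, are given per tumor because of their values, outside the rule that set which genes are shown. Casq1 had 5.55, 5.37, 8.81 and 5.44 in MMTV-Wnt/ILK tumors and 7.24, 5.02, 5.53 and 5.59 in MMTV-Wnt1 tumors. Pvalb, the calcium buffer parvalbumin of fast fibers, had 5.49, 5.30, 8.23 and 5.31 in MMTV-Wnt/ILK tumors and 6.89, 5.16, 5.81 and 5.25 in MMTV-Wnt1 tumors. Both genes were below the lower quartile of the array in 5 of the 8 tumors and well above it in the high pair. Myl1, an essential light chain of fast myosin, had 4.41, 4.67, 7.66 and 4.39 in MMTV-Wnt/ILK tumors and 5.99, 5.60, 4.85 and 4.78 in MMTV-Wnt1 tumors. Myl1 was below the lower quartile of the array in 6 of the 8 tumors. With tumor 3 set aside, the highest remaining MMTV-Wnt/ILK tumor (4.67) was lower than the lowest MMTV-Wnt1 tumor (4.78) in Myl1. That omission was chosen after the values were seen, and the share of all rows with this order was not counted.

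The slow fiber members did not move as a block. Of the 4 measured, Mybpc1 alone had the order of tumors seen in the fast fiber members. Mybpc1, the slow form of myosin binding protein C, had 4.58, 4.66, 7.97 and 4.51 in MMTV-Wnt/ILK tumors and 6.74, 4.84, 4.79 and 4.69 in MMTV-Wnt1 tumors. Its step over the mean of the other tumors of the group was 10.4-fold in MMTV-Wnt/ILK tumor 3 and 3.90-fold in MMTV-Wnt1 tumor 1. Tnni1, the slow troponin I, had 5.89, 6.10, 5.76 and 6.04 in MMTV-Wnt/ILK tumors and 6.84, 6.42, 6.41 and 6.15 in MMTV-Wnt1 tumors. MMTV-Wnt/ILK tumor 3, the highest tumor for fast troponin I, was the lowest of the 8 for slow troponin I, and the groups did not overlap. Tnnc1, the troponin C of slow fibers and heart, had 6.57, 5.53, 5.76 and 5.50 in MMTV-Wnt/ILK tumors and 6.52, 5.11, 5.53 and 5.41 in MMTV-Wnt1 tumors. Its highest tumor was MMTV-Wnt/ILK tumor 1, next to MMTV-Wnt1 tumor 1, and MMTV-Wnt/ILK tumor 3 stood at 0.932-fold of the mean of its group mates. Myl2, the regulatory light chain of slow fibers and ventricle, had 3.35, 3.24, 3.36 and 3.26 in MMTV-Wnt/ILK tumors and 3.44, 3.33, 3.41 and 3.44 in MMTV-Wnt1 tumors. Its range over the 8 tumors was 0.21, the smallest of the members, and it was below the lower quartile of every array, where a change may not be seen.

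**Figure D2:**
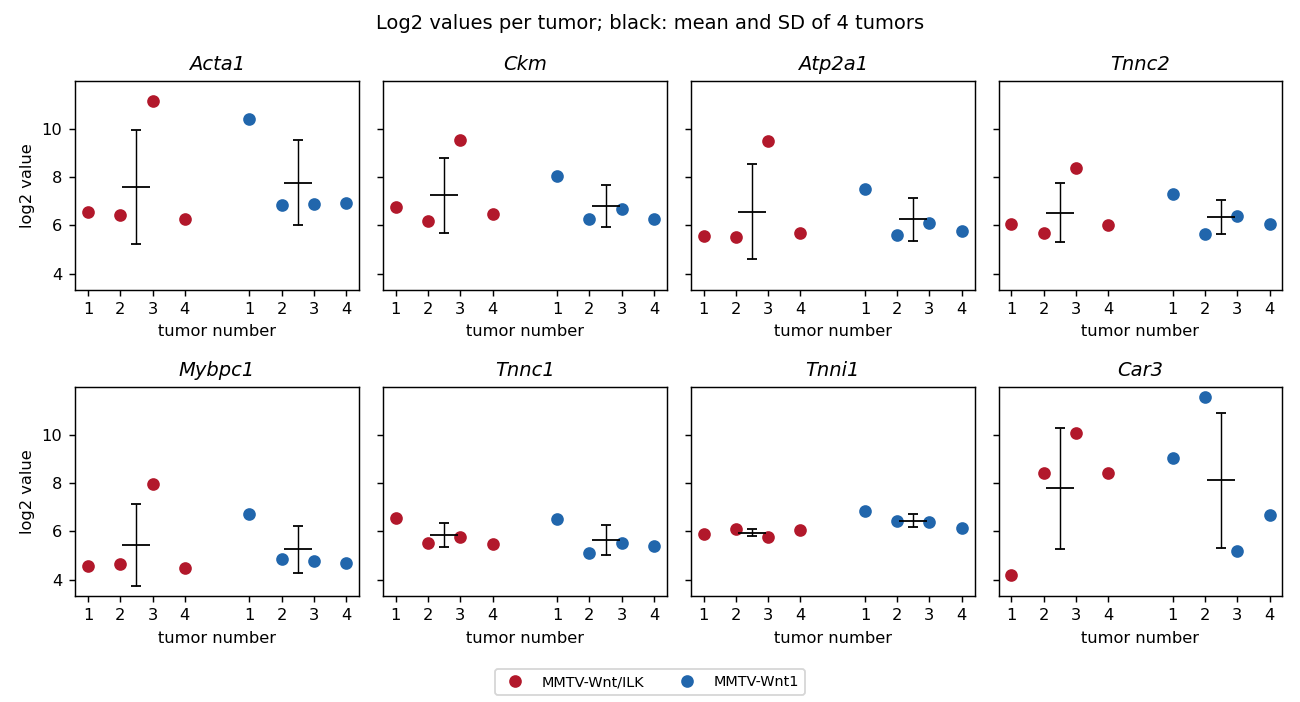
Points are the log2 values of 8 members in each tumor, with MMTV-Wnt/ILK tumors 1 to 4 on the left and MMTV-Wnt1 tumors 1 to 4 on the right of each panel, and black marks are the mean and SD of 4 tumors. Acta1, Ckm, Atp2a1, Tnnc2 and Mybpc1 are high in MMTV-Wnt/ILK tumor 3 and MMTV-Wnt1 tumor 1, Tnnc1 and Tnni1 are not high in MMTV-Wnt/ILK tumor 3, and Car3 is highest in MMTV-Wnt1 tumor 2 at 11.59.

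Among the shared sarcomere and Z disc members, Acta1 had the largest folds of all members in the high pair, whereas Ldb3 and Tcap showed small ones in MMTV-Wnt/ILK tumor 3. Acta1 encodes skeletal alpha-actin, the actin of the thin filament. It had 6.53, 6.44, 11.14 and 6.24 in MMTV-Wnt/ILK tumors and 10.41, 6.85, 6.90 and 6.91 in MMTV-Wnt1 tumors. These were folds of 26.6 for MMTV-Wnt/ILK tumor 3 and 11.5 for MMTV-Wnt1 tumor 1 over the mean of the other tumors of each group. Ldb3, also called ZASP, holds alpha-actinin at the Z disc and had 7.69, 6.91, 7.35 and 7.33 in MMTV-Wnt/ILK tumors and 7.78, 6.34, 7.06 and 6.65 in MMTV-Wnt1 tumors. Here MMTV-Wnt1 tumor 1 was highest and MMTV-Wnt/ILK tumor 3 was within the range of its group. The other 5 members of this role, Actn2, Myot, Tcap, Des and Smpx, had the high pair as their 2 highest tumors, and in MMTV-Wnt/ILK tumor 3 the fold over its group mates was 1.63 in Tcap, which joins titin at the Z disc. The median fold of the role was 4.10 in MMTV-Wnt/ILK tumor 3 and 2.37 in MMTV-Wnt1 tumor 1. Des, the intermediate filament desmin, which smooth muscle makes as well, had 6.44, 6.63, 8.77 and 6.42 in MMTV-Wnt/ILK tumors and 7.96, 7.44, 5.95 and 6.75 in MMTV-Wnt1 tumors.

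The calcium release members had the same tumors on top, with smaller steps and with MMTV-Wnt1 tumor 1 the higher of the pair in Sln (5.22 in MMTV-Wnt/ILK tumor 3 and 5.24 in MMTV-Wnt1 tumor 1). In all 5 measured members the high pair were the 2 highest tumors, and MMTV-Wnt/ILK tumor 3 was more than 1 log2 unit above each other MMTV-Wnt/ILK tumor in 1 of them, Trdn. Ryr1 encodes the ryanodine receptor through which calcium leaves the sarcoplasmic reticulum. It had 5.73, 5.54, 6.38 and 5.67 in MMTV-Wnt/ILK tumors and 6.16, 5.59, 5.83 and 5.75 in MMTV-Wnt1 tumors. Cacng1, the gamma subunit of the voltage sensor, had 6.01, 5.85, 6.17 and 5.63 in MMTV-Wnt/ILK tumors and 6.04, 5.91, 5.97 and 5.96 in MMTV-Wnt1 tumors. The high pair stood clear of the other 6 tumors in Ryr1, whereas in Cacng1 MMTV-Wnt1 tumor 1 at 6.04 was next to MMTV-Wnt/ILK tumor 1 at 6.01. Trdn, which anchors calsequestrin at the release site, and Sln, the small inhibitor of the calcium pump, were below the lower quartile of every array, as were Myl2 and Ckmt2.

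Of the 7 measured metabolic members, 6 had the high pair as their 2 highest tumors. Ckm encodes the muscle creatine kinase that rebuilds ATP from phosphocreatine. It had 6.74, 6.19, 9.55 and 6.47 in MMTV-Wnt/ILK tumors and 8.06, 6.24, 6.67 and 6.25 in MMTV-Wnt1 tumors, or folds over the group mates of 8.48 for MMTV-Wnt/ILK tumor 3 and 3.18 for MMTV-Wnt1 tumor 1. Eno3, the enolase of muscle glycolysis, had 6.84, 7.26, 8.63 and 6.99 in MMTV-Wnt/ILK tumors and 7.68, 7.20, 7.46 and 7.26 in MMTV-Wnt1 tumors. In Eno3 the step of MMTV-Wnt1 tumor 1 was 1.30-fold, the smallest of this role, against 3.04-fold for MMTV-Wnt/ILK tumor 3. Pygm, the glycogen phosphorylase of muscle, had corresponding folds of 4.64 in MMTV-Wnt/ILK tumor 3 and 1.49 in MMTV-Wnt1 tumor 1. Mb, the oxygen store myoglobin, had a fold of 1.29 in MMTV-Wnt/ILK tumor 3 and 1.62 in MMTV-Wnt1 tumor 1.

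Car3 encodes carbonic anhydrase III, which slow muscle and fat cells both make in large amounts, and it followed another order. It had 4.19, 8.43, 10.09 and 8.43 in MMTV-Wnt/ILK tumors and 9.06, 11.59, 5.20 and 6.66 in MMTV-Wnt1 tumors. The highest tumor was MMTV-Wnt1 tumor 2, followed by the high pair, MMTV-Wnt/ILK tumor 3 and then MMTV-Wnt1 tumor 1. The groups overlapped throughout, and the range of 7.40 was the largest of the members. MMTV-Wnt1 tumor 2 was also the highest tumor for white fat genes, with a score of 1.53, and for brown fat genes, with a score of 2.30, where a score is the mean over the genes of a list of the log2 value minus the mean of the gene over the 8 tumors. Adipoq, the fat cell hormone adiponectin, was at 5.10 to 5.52 in MMTV-Wnt/ILK tumors, at 9.08 in MMTV-Wnt1 tumor 2 and at 5.19 to 5.45 in the other MMTV-Wnt1 tumors. The part of fat in the Car3 values was not tested.

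The scores put the members of a role on 1 scale per tumor. Over all 34 members the score was -0.43, -0.37, 1.41 and -0.39 in MMTV-Wnt/ILK tumors 1 to 4, against 0.75, -0.26, -0.31 and -0.39 in MMTV-Wnt1 tumors 1 to 4. Without Car3 the score of MMTV-Wnt/ILK tumor 3 was 1.38 and that of MMTV-Wnt1 tumor 1 was 0.74. The 2 high tumors were separated from the other 6, which lay within -0.43 and -0.26. The fast fiber score was -0.50, -0.46, 1.99 and -0.56 in MMTV-Wnt/ILK tumors and 0.83, -0.51, -0.34 and -0.45 in MMTV-Wnt1 tumors. The slow fiber score was -0.06, -0.28, 0.55 and -0.34 in MMTV-Wnt/ILK tumors and 0.72, -0.24, -0.13 and -0.24 in MMTV-Wnt1 tumors. MMTV-Wnt/ILK tumor 3 thus had the higher fast fiber score of the pair and MMTV-Wnt1 tumor 1 the higher slow fiber score, but the slow fiber score rests on 4 genes and its value in MMTV-Wnt/ILK tumor 3 comes from Mybpc1. The shared sarcomere and Z disc score was 1.51 in MMTV-Wnt/ILK tumor 3 and 1.06 in MMTV-Wnt1 tumor 1, and the calcium release score was 0.68 in MMTV-Wnt/ILK tumor 3 and 0.45 in MMTV-Wnt1 tumor 1. The metabolic score was 1.39 in MMTV-Wnt/ILK tumor 3 and 0.55 in MMTV-Wnt1 tumor 1.

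**Figure D3:**
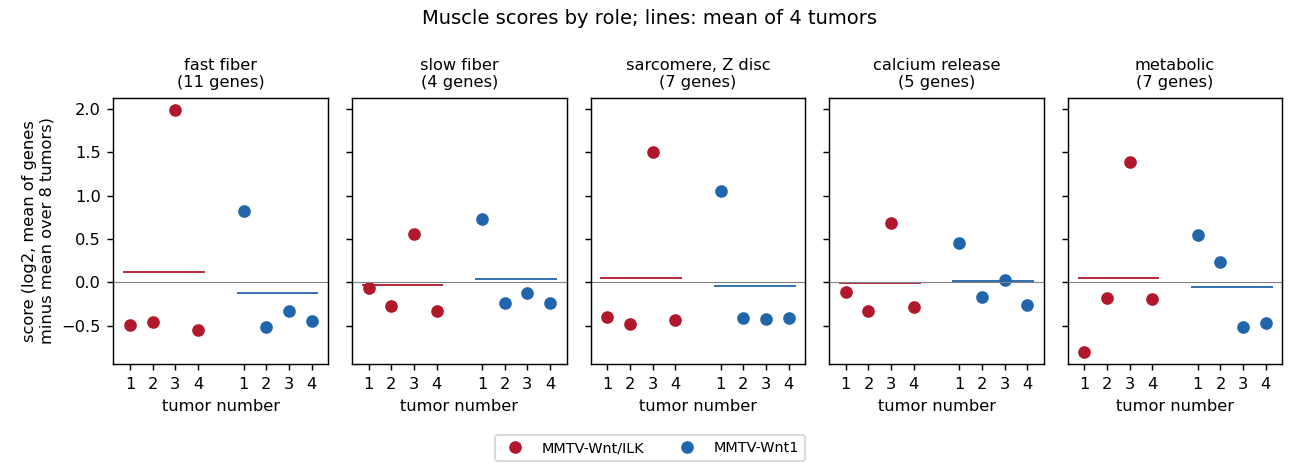
Points give the score of each role in each tumor (mean over the genes of the log2 value minus the mean of the gene over 8 tumors), MMTV-Wnt/ILK tumors on the left and MMTV-Wnt1 tumors on the right of each panel, with lines at the group means. MMTV-Wnt/ILK tumor 3 and MMTV-Wnt1 tumor 1 are the highest tumors in all 5 panels, at 1.99 and 0.83 for the fast fiber genes.

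The high pair was also set against the median of the other 6 tumors, over all 34 measured members. MMTV-Wnt/ILK tumor 3 exceeded it by a median of 1.90 log2 units and MMTV-Wnt1 tumor 1 by a median of 1.05. Over the fast fiber members the medians were 2.34 in MMTV-Wnt/ILK tumor 3 and 1.27 in MMTV-Wnt1 tumor 1, and over the slow fiber members 0.14 in MMTV-Wnt/ILK tumor 3 and 0.86 in MMTV-Wnt1 tumor 1. The shared sarcomere and Z disc members had 2.03 in MMTV-Wnt/ILK tumor 3 and 1.38 in MMTV-Wnt1 tumor 1, and the metabolic members 1.41 in MMTV-Wnt/ILK tumor 3 and 0.58 in MMTV-Wnt1 tumor 1. The calcium release members had 0.70 in MMTV-Wnt/ILK tumor 3 and 0.72 in MMTV-Wnt1 tumor 1. Within the pair, MMTV-Wnt/ILK tumor 3 was the lower tumor in Tnni1, Tnnc1, Myl2, Ldb3, Sln and Mb and the higher one in the other members. Whether these differences exceed the error of single arrays was not tested, since each tumor has 1 array.

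The position of a member on the array also changed between tumors. In MMTV-Wnt/ILK tumor 3, 20 of 34 members were above the median of all rows, and in MMTV-Wnt1 tumor 1, 17 were, compared with 1 to 3 members in each of the other 6 tumors. Members above the upper quartile of the array numbered 8 in MMTV-Wnt/ILK tumor 3, 2 in MMTV-Wnt1 tumor 1, 1 in MMTV-Wnt1 tumor 2 and 0 in the others. Since probes differ in brightness, these counts set tumors against each other and not genes. The range over the 8 tumors exceeded 2 log2 units in 18 of 34 members, against 12.7% of all rows, and 1 log2 unit in 30 members, against 49.4%.

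Whether the ILK transgene goes with a difference in muscle transcripts was asked by comparing the groups with limma, which fits a linear model and moderates the variance of each row, over all 23332 rows. No row passed an adjusted p under 0.05 (0% of rows, smallest adjusted p 0.905). At an unadjusted p under 0.05, MMTV-Wnt/ILK tumors were higher in 678 rows (2.91%) and lower in 515 rows (2.21%). Of the 34 members, 0 were higher and 1, Tnni1, was lower at that threshold, a share near the background. The mean was higher in MMTV-Wnt/ILK tumors for 23 members and lower for 11. The median log2 fold change was 0.13 over the members, 0.23 over the fast fiber members and 0.03 over the slow fiber members, against -0.03 over all rows, of which 45.3% had a higher mean. The 95% interval included 0 in 33 of 34 members. None of the members had all MMTV-Wnt/ILK tumors above all MMTV-Wnt1 tumors (1.47% of rows), and 1, Tnni1, had all of them below (1.42% of rows).

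Tnni1 averaged 5.95 ± 0.15 in MMTV-Wnt/ILK tumors and 6.45 ± 0.29 in MMTV-Wnt1 tumors (SD, n = 4 each). The log2 fold change was -0.50 (SE 0.18, 95% interval -0.91 to -0.10), and limma gave an adjusted p of 0.905 over all rows. An exact permutation test, 2-sided and over all 70 ways to assign the tumors, gave p = 0.029, the smallest it can give. Tnni1 was named because its p was the smallest of the members, and neither value is independent of that choice. When MMTV-Wnt/ILK tumor 3 was left out, the log2 fold change was -0.44 and Tnni1 no longer passed an unadjusted p under 0.05 in limma, with an adjusted p of 0.915. Without both tumors of the high pair the log2 fold change was -0.31, with an unadjusted p of 0.093 in limma. Tnni1 was below the median of the array in all 8 tumors.

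For the members with the largest steps the spread within a group exceeded the difference between groups. Acta1 averaged 7.59 ± 2.37 in MMTV-Wnt/ILK tumors and 7.77 ± 1.76 in MMTV-Wnt1 tumors (SD, n = 4 each), or a log2 fold change of -0.18 (SE 1.23). Atp2a1 averaged 6.56 ± 1.96 in MMTV-Wnt/ILK tumors and 6.24 ± 0.87 in MMTV-Wnt1 tumors, or a log2 fold change of 0.32 (SE 0.90). Car3 averaged 7.78 ± 2.52 in MMTV-Wnt/ILK tumors and 8.13 ± 2.80 in MMTV-Wnt1 tumors, with a 95% interval of the log2 fold change from -3.90 to 3.22. Such an interval leaves room for large changes in either direction. The log2 fold changes of the other genes shown by rule were 0.43 for Tnni2, 0.36 for Ldb3, 0.20 for Tnnc1, 0.19 for Tnnt3, 0.18 for Tnnc2, 0.16 for Mybpc1, 0.03 for Eno3, -0.05 for Cacng1 and -0.11 for Myl2, and Ryr1 averaged 5.83 in both groups. Adjusted p-values of the 34 members in limma ran from 0.905 to 0.999.

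The direction of the group difference rested on the high pair of tumors. When MMTV-Wnt/ILK tumor 3 was left out, the mean of the remaining MMTV-Wnt/ILK tumors was higher in 3 members and lower in 31, with a median log2 fold change of -0.37. When MMTV-Wnt1 tumor 1 was left out, it was higher in 29 members and lower in 5, with a median of 0.42. Without both, it was higher in 11 and lower in 23, and the median was -0.10 against -0.07 over all rows. Acta1 was the 1 member that passed an unadjusted p under 0.05 without both, at a log2 fold change of -0.48 (SE 0.15, adjusted p of 0.637 in limma), where 7.68% of all rows passed. The member that passed without MMTV-Wnt/ILK tumor 3 was Myl1, where 5.13% of all rows passed, and those that passed without MMTV-Wnt1 tumor 1 were Tnni1 and Ldb3, where 8.61% of all rows passed. Each of these shares of the members was below that of all rows. Leaving out both tumors was chosen after the values were seen.

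**Figure D4:**
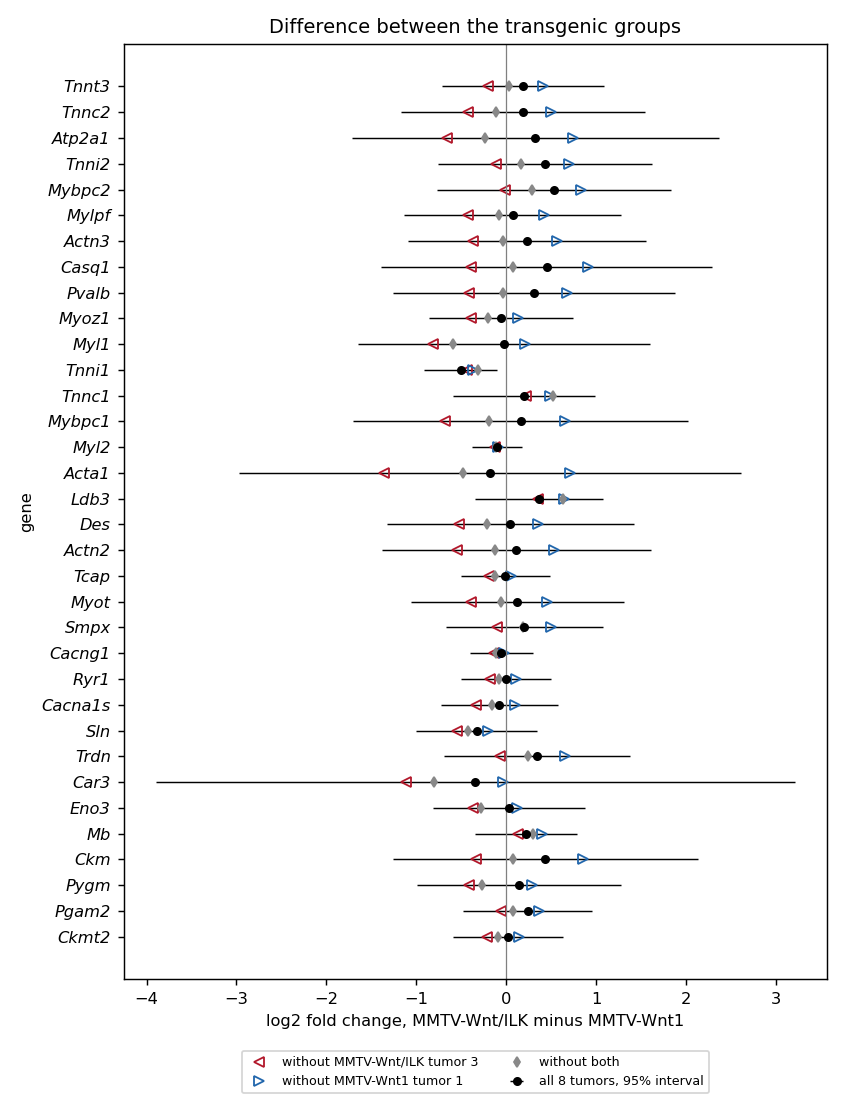
Log2 fold change of each member, MMTV-Wnt/ILK minus MMTV-Wnt1, from all 8 tumors with its 95% interval (black), without MMTV-Wnt/ILK tumor 3 (left-pointing), without MMTV-Wnt1 tumor 1 (right-pointing) and without both (diamonds). The interval includes 0 in 33 of 34 members, and the median of the members is 0.13 with all tumors, -0.37 without the first, 0.42 without the second and -0.10 without both.

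The other 6 tumors differed little in these genes. Their range had a median of 0.56 over the members, against 0.80 over all rows. It exceeded 1 log2 unit in 7 of 34 members, against 37.5% of all rows, and these were Myl1, Mybpc2, Tnnc1, Ldb3, Des, Sln and Car3. The 3 MMTV-Wnt/ILK tumors were each lower than the 3 MMTV-Wnt1 tumors in 4 members, Myl1, Tnni1, Mybpc1 and Acta1 (8.55% of rows), and each higher in 0 members (4.60% of rows). In Acta1 these were 6.24 to 6.53 in MMTV-Wnt/ILK tumors and 6.85 to 6.91 in MMTV-Wnt1 tumors. Because the 6 tumors were left after removing those that the members themselves singled out, the counts are a description.

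Further muscle genes were read from a separate list. Of 58 other skeletal muscle genes, 43 were measured. In 20 of the 43 the high pair were the 2 highest tumors (2.92% of all rows). The score of the list was 0.39 in MMTV-Wnt/ILK tumor 3 and 0.27 in MMTV-Wnt1 tumor 1, against -0.16 to -0.12 in the other MMTV-Wnt/ILK tumors and -0.21 to 0.08 in the other MMTV-Wnt1 tumors. In 5 of the 43, MMTV-Wnt/ILK tumor 3 was more than 1 log2 unit above its group mates (0.746% of all rows). These were Myom1, Myom2, Nrap, Mstn and Hspb6, which are named because of their values. MMTV-Wnt1 tumor 1 was that far above its own group mates in 0 of the 43 (0.724% of all rows). Nrap, an actin-binding protein of the myotendinous junction, had 5.60, 5.53, 7.41 and 5.62 in MMTV-Wnt/ILK tumors and 6.64, 5.62, 5.66 and 5.78 in MMTV-Wnt1 tumors. Mstn, which encodes myostatin, the secreted brake on muscle growth, had 4.56, 4.44, 5.64 and 4.29 in MMTV-Wnt/ILK tumors and 4.50, 4.10, 4.43 and 3.92 in MMTV-Wnt1 tumors, so that MMTV-Wnt1 tumor 1 at 4.50 lay next to MMTV-Wnt1 tumor 3 at 4.43. At an unadjusted p under 0.05, 1 of the 43 was higher in MMTV-Wnt/ILK tumors, Adssl1 (2.91% of all rows), and 0 were lower (2.21% of all rows), shares near the background.

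Genes of muscle precursors had the high pair on top less often than the members. Of 10 measured satellite cell and myoblast genes, 2 had the high pair as their 2 highest tumors (2.92% of all rows). MMTV-Wnt1 tumor 1 was the highest tumor in 7 of the 10 (14.2% of all rows). The score of the list was -0.21, -0.21, 0.09 and -0.17 in MMTV-Wnt/ILK tumors and 0.51, -0.17, 0.18 and -0.02 in MMTV-Wnt1 tumors. Each of the high pair was thus the highest of its group, with MMTV-Wnt1 tumor 3 between them. Of the 10 genes, 9 were below the median of every array. Myog, the transcription factor myogenin of differentiating myoblasts, had 6.24, 6.07, 6.24 and 5.998 in MMTV-Wnt/ILK tumors and 7.23, 6.22, 6.67 and 6.48 in MMTV-Wnt1 tumors, and it was the 1 gene of the list that passed an unadjusted p under 0.05, as lower in MMTV-Wnt/ILK tumors (2.21% of all rows were lower at that threshold). Myf6, a myogenic factor that mature fibers keep, had 4.75, 5.39, 6.25 and 5.53 in MMTV-Wnt/ILK tumors and 6.22, 4.91, 5.21 and 4.94 in MMTV-Wnt1 tumors, with the high pair on top. MMTV-Wnt1 tumor 1 also stood apart as an array. Its median of 6.89 was the lowest of the 8, its dimmest 25% of rows lay a median of 0.077 above their means over the tumors, and its weight in limma, which falls with the distance of an array from the fit of its group, was 0.303 against 0.697 to 2.21 for the others. The part of this in the values of MMTV-Wnt1 tumor 1 was not tested.

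Few genes of the other contractile and stromal lists had the high pair on top, an order found in 2.92% of all rows. The high pair were the 2 highest tumors in 1 of 9 neuromuscular junction genes, in 1 of 7 heart muscle genes (the atrial light chain Myl7), in 0 of 12 smooth muscle and myoepithelial genes, in 0 of 11 white fat genes, in 0 of 7 brown fat genes and in 0 of 9 luminal epithelial genes. The smooth muscle and myoepithelial score was 0.07, 0.60, -0.49 and 0.33 in MMTV-Wnt/ILK tumors and -0.32, 0.06, 0.06 and -0.31 in MMTV-Wnt1 tumors, lowest in MMTV-Wnt/ILK tumor 3. Acta2, the smooth muscle actin of myoepithelial cells and vessels, was at 12.32, 12.74, 11.41 and 12.17 in MMTV-Wnt/ILK tumors and 12.11, 12.83, 12.55 and 11.65 in MMTV-Wnt1 tumors, so the tumor highest for skeletal actin was lowest for smooth muscle actin. Cox7a1 and Cox8b stand on the brown fat list and on that of other skeletal muscle genes. The heart muscle score was 0.03 in MMTV-Wnt/ILK tumor 3, against -0.16 to -0.12 in its group mates. In MMTV-Wnt1 tumor 1 it was 0.22, against -0.18 to 0.18 in its group mates. The neuromuscular junction score was 0.06 in MMTV-Wnt/ILK tumor 3, against -0.09 to 0.03 in its group mates. In MMTV-Wnt1 tumor 1 it was 0.17, against -0.17 to 0.07. Each of the high pair was thus the highest of its group in both scores. Below the median of every array were 6 of 7 heart muscle and 6 of 9 neuromuscular junction genes. At an unadjusted p under 0.05, 0 genes of these 6 lists passed in limma in either direction. The part of neighboring muscle tissue in the values of the members was not tested.

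**Figure D5:**
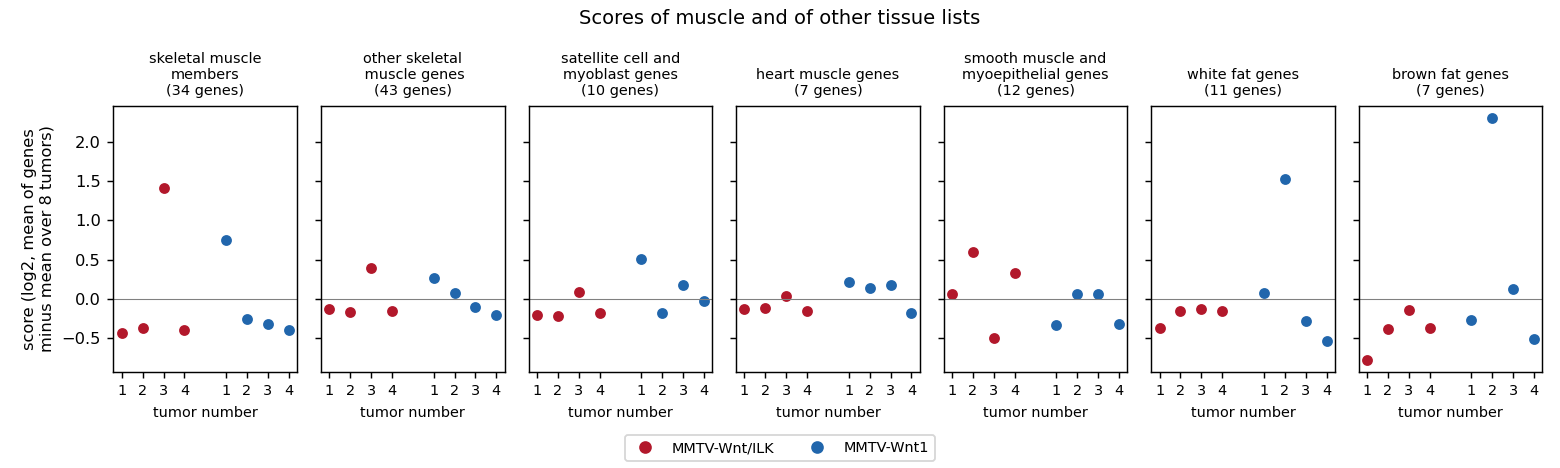
Points give the score of each gene list in each tumor (mean over the genes of the log2 value minus the mean of the gene over 8 tumors), MMTV-Wnt/ILK tumors on the left and MMTV-Wnt1 tumors on the right of each panel. The scores of the 34 members and of 43 other skeletal muscle genes are highest in MMTV-Wnt/ILK tumor 3 and MMTV-Wnt1 tumor 1, whereas those of white and brown fat genes are highest in MMTV-Wnt1 tumor 2, at 1.53 and 2.30.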

How the data were processed

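RNA of 8 snap-frozen mammary tumors was read on 1 array each. The deposited table holds log2 values of 23332 rows, which the authors made with the RMA algorithm of ArrayAssist (background correction and summary of probes) and quantile normalization between chips. The labels and the paper name different versions of ArrayAssist, and the log base was read from how far the values spread. Rows were named through the platform annotation. Exactly 1 gene was given for 14996 rows, several genes for 1019 and no gene for 7317, and exon-level values were not used. A gene with more than 1 row is represented by its brightest row.

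Groups and tumor numbers came from the labels. Groups were compared over all rows, without covariates or filter, by lmFit and eBayes of limma 3.58.1 (R 4.3.3) with Benjamini-Hochberg adjustment, and single genes with an exact permutation test over 70 assignments. The fit was tested on simulated data. Precision is limited by the number of arrays. Alternatives tried were the one-way analysis of the deposited design text (an equal-variance test), a variance trend, array weights, a filter on the dimmest 25% of rows, arrays centred on their medians, a second quantile normalization, a replicate block, omission of each tumor, and averaging of the rows of a gene. Leaving out both high tumors and a median baseline for the scores were added after seeing the data.

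The members and lists were chosen with earlier results of these data known. By rule, values per tumor are given for the 4 fast and 4 slow fiber members and the 2 members of each other role with the highest means, for members at an unadjusted p under 0.05, and for those with the largest and smallest range. Other genes shown per tumor were chosen after their values were seen. Promoters are from RefSeq (GRCm38.p6), 250 bases before to 50 after the start, and figures were drawn with matplotlib 3.10.9.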

Additional observations from a re-analysis of the deposited data

Results flagged for a closer look

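In 29 of 96 groups of 4 tumors examined (the measured members and the gene list scores, each in both transgenic groups), the highest or lowest tumor stood apart from the other 3 by more than Dixon's 95% limit. Chance gives about 1 in 20, or 4.8 groups, and since the members vary together the groups are not independent of each other. Of the 29, 21 were in MMTV-Wnt/ILK tumor 3, 7 in MMTV-Wnt1 tumor 1 and 1 in MMTV-Wnt/ILK tumor 1.

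Fast fiber members stood apart in MMTV-Wnt/ILK tumor 3 at log2 values of 8.23 for Pvalb, 8.22 for Tnni2, 7.77 for Tnnt3, 8.37 for Tnnc2, 8.07 for Actn3, 7.66 for Myl1, 9.51 for Atp2a1 and 8.81 for Casq1. Other members apart in that tumor were Mybpc1 at 7.97, Acta1 at 11.14, Actn2 at 7.80, Myot at 6.80, Des at 8.77, Cacna1s at 6.32, Ckm at 9.55 and Pygm at 8.73. In MMTV-Wnt1 tumor 1 the members apart were Mybpc1 at 6.74, Acta1 at 10.41 and Actn2 at 6.96.

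The score of all members stood apart at 1.41 in MMTV-Wnt/ILK tumor 3 and at 0.75 in MMTV-Wnt1 tumor 1, the fast fiber score at 1.99 and 0.83 in these tumors, and the shared sarcomere and Z disc score at 1.51 and 1.06. The slow fiber score stood apart in MMTV-Wnt1 tumor 1 alone, at 0.72. Among the other lists, other skeletal muscle genes (0.39) and satellite cell and myoblast genes (0.094) stood apart in MMTV-Wnt/ILK tumor 3, and white fat genes were low in MMTV-Wnt/ILK tumor 1 (-0.36).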

How the results depend on the processing

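Scores of the members in each tumor moved by less than the spread between tumors under every alternative run. The count of rows at an adjusted p under 0.05 was 0 with all tumors and 0 to 13 when single tumors were left out, with 13 without MMTV-Wnt/ILK tumor 2. The count of members at an unadjusted p under 0.05 was 1 with all tumors, 2 with the equal-variance test (Tnni1 and Myl2), 2 with array weights (Tnni1 and Ldb3) and 1 to 2 when single tumors were left out, with 2 without MMTV-Wnt1 tumor 1. Over all rows that threshold gave 1193, against 2607 with array weights, 2010 when MMTV-Wnt1 tumor 1 was left out, 727 when MMTV-Wnt/ILK tumor 4 was left out and 1791 when both high tumors were.

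Log2 fold changes turned sign for several genes, none of which passed an unadjusted p under 0.05 in the setting that turned it. Acta1 passed that threshold without both high tumors, where its sign did not turn. With array weights Acta1 was 0.30 and Ryr1 0.088, and with repeated quantile normalization Ryr1 was 0.020 and Eno3 -0.015. Without both high tumors Atp2a1 was -0.23, Eno3 -0.28, Mybpc1 -0.19 and Tnnc2 -0.11. The causes of these turns were not tested. Leaving out single tumors gave -1.36 to 0.70 for Acta1, -0.66 to 0.75 for Atp2a1, -0.14 to 0.042 for Cacng1, -1.32 to 0.86 for Car3, -0.37 to 0.23 for Eno3, -0.68 to 0.65 for Mybpc1, -0.19 to 0.11 for Ryr1, -0.047 to 0.49 for Tnnc1, -0.43 to 0.50 for Tnnc2, -0.11 to 0.70 for Tnni2 and -0.20 to 0.41 for Tnnt3. Tnni1 kept its direction under every alternative run, at -0.61 to -0.37 when single tumors were left out. Without the dimmest 25% of rows, 24 of the 34 members kept a value. Among them were 9 of the 11 fast fiber members and 2 of the 4 slow fiber members. Of the genes shown by rule, Mybpc1 and Myl2 were among these dimmest rows and have no value without them.

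The numbers were not taken as pairs, since no label says that they pair tumors. Deviations of tumors with the same number had correlations of 0.107, 0.132, 0.155 and -0.0041. Tumors with different numbers were not set beside these, so the correlations cannot decide on a pairing. With the replicate block 0 rows passed an adjusted p under 0.05, 1485 passed an unadjusted one, and the member count stayed at 1, with a log2 fold change of -0.50 for Tnni1. Members below the lower quartile of every array (Myl2, Trdn, Sln and Ckmt2) limit what their values can show.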
